A study of Homo sapiens with 18 samples.

Results

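The lung cancer cell lines H2023 and ABC-1 were compared in how their transcripts answered CCS1477. For every gene row listed in the tables of both lines, the log2 change after CCS1477 in H2023 minus the log2 change in ABC-1 was taken as the difference in response, and it was tested as an interaction over 12 libraries. The lines shared 15333 of the 19717 gene rows found in either table. Of these, 12469 reached 1 CPM (the reads of a gene relative to all reads of its library) in at least 3 of the 6 libraries of each line and were tested, 821 reached that level in H2023 only, 655 in ABC-1 only and 1388 in neither. Stress genes were taken from 14 lists that held 284 genes, of which 266 were shared rows and 256 were tested. A gene is called opposite here where its change passed the threshold in both lines with opposite signs and the difference passed as well, with adjusted p below 0.05 throughout (limma, Benjamini-Hochberg over the 12469 genes). Which genes are opposite was thus read from these same contrasts, and their number is a description. Members and lists were chosen with earlier results of these data known, so the shares of opposite genes in the lists are descriptions too.

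Each line had 3 libraries from cells kept for 24 h in DMSO, the solvent, and 3 from cells kept for 24 h with 5 µM CCS1477. The sample descriptions give the dose in µM and the series text gives it in mM, and µM is used here. H2023 is labelled as a squamous carcinoma line and is named in the series text as NRF2-activated, whereas ABC-1 is labelled as an adenocarcinoma line and named as wildtype. Nothing in the labels ties replicates to separate cultures, so the p-values reflect the spread among these libraries, which may be technical. In this comparison each genotype was represented by 1 line, so NRF2 status cannot be told apart from any other feature in which H2023 and ABC-1 differ.

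CCS1477, or inobrodib, is a small molecule that occupies the acetyl-lysine pocket of the bromodomain of p300 and CBP, the coactivators encoded by EP300 and CREBBP that acetylate histones at active enhancers. ATF4 is a transcription factor whose translation rises when cells lack amino acids or accumulate unfolded protein, and its targets import amino acids, make serine and glycine and charge transfer RNAs. AP-1 is a dimer of FOS and JUN family proteins that is induced within minutes of growth factor or stress signalling, together with other immediate-early genes and the phosphatases that switch the signal off again. NF-kB drives inflammatory genes and its own inhibitors, p53 acts on cell cycle arrest and death, and NRF2 with its inhibitor KEAP1 governs the antioxidant programme.

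The H2023 libraries held 15352631 to 18261158 recovered reads each, and those of ABC-1 held 14483979 to 17483292. Mitochondrial genes took 1.54 to 2.40% of reads. DMSO replicate 3 of ABC-1 stood apart from its replicates, with the highest mitochondrial share (2.40%, against 1.69 and 1.58%) and ribosomal RNA at 0.00581% of reads, against 0.000185 and 0.000160%. Without it, 5396 differences between the lines were called and 344 and 436 genes were opposite in each sense, against 5613, 356 and 460 with it. CPM are shares of each library's own reads, and the tables of the lines were scaled separately, so that levels set across lines are descriptions. The labels were checked against lineage markers in the table of each line. Of the squamous markers, KRT5, KRT6A, KRT14, DSG3 and SOX2 had no row in the H2023 table used here, PKP1 averaged 0.414 CPM and TP63 1.84 CPM in its DMSO libraries, while KRT7, a simple-epithelium keratin, averaged 1573 CPM. In ABC-1 the DMSO means were 149 CPM for SOX2, 98.4 CPM for MUC1, 1.34 CPM for NKX2-1 and 1.89 CPM for KRT7, and NAPSA, SFTPB and SFTPC had no row in its table used here. The squamous keratins of H2023 and the alveolar markers NAPSA, SFTPB and SFTPC of ABC-1 thus had no gene row. Transcript rows were not searched for them, so a lack of expression is not shown. The labels were therefore not borne out by these markers, and the lines are called by their names only.

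The responses differed for many genes. Of the 12469 genes, 5613 had a called difference (45.0%), 2701 with a higher change in H2023 (21.7%) and 2912 with a lower one (23.4%). CCS1477 changed 7554 genes in H2023 (60.6%) and 8353 in ABC-1 (67.0%), and the median absolute log2 change was 0.28 in H2023 and 0.35 in ABC-1. Of the 5840 genes changed in both lines, 5024 moved the same way (86.0%) and 816 were opposite, which is 6.54% of all tested. Of the opposite genes, 356 rose in H2023 and fell in ABC-1 (2.86% of all tested) and 460 fell in H2023 and rose in ABC-1 (3.69%). Among genes that moved the same way with a called difference, the change was larger in ABC-1 for 677 of those that rose and 873 of those that fell, and larger in H2023 for 278 and 289. The share of differences that were higher in H2023 was 48.1% and ran from 45.1 to 53.4% under the alternatives, so neither direction led under every scaling. Counts for the lists below stand beside 60.6% of all tested genes changed in H2023, 67.0% in ABC-1 and 45.0% with a called difference.

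**Figure D1:**
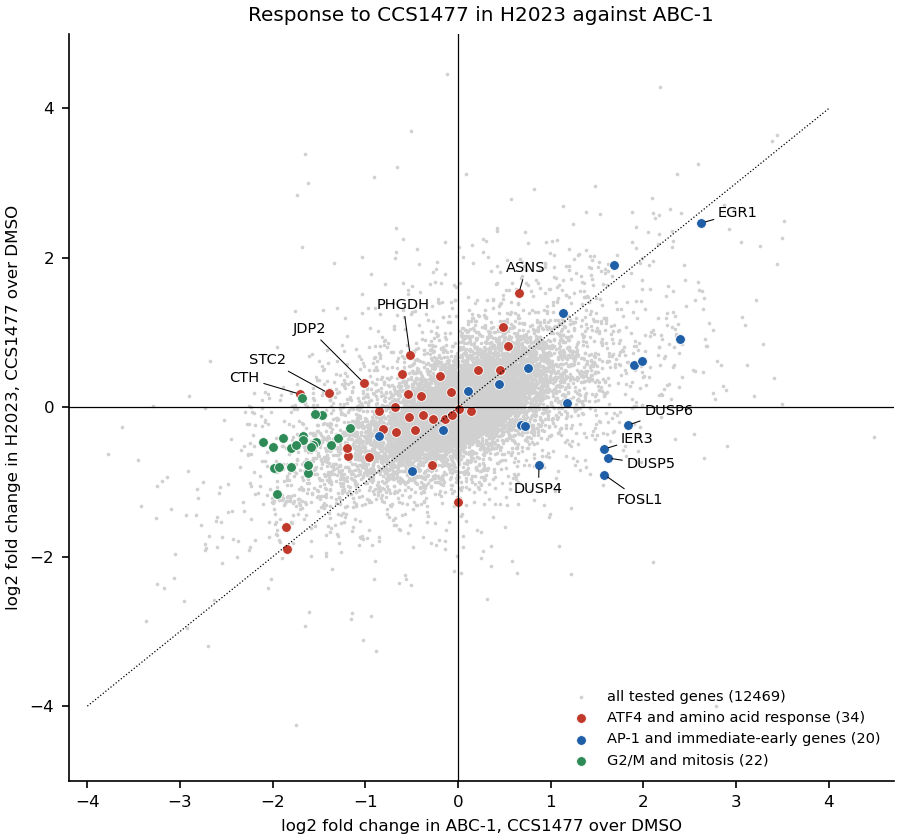
Log2 fold change of CCS1477 over DMSO in ABC-1 (horizontal) against H2023 (vertical) for the 12469 tested genes, with 3 genes outside the axes; the dotted line marks equal change. ATF4 genes (red) sit mostly above the dotted line, AP-1 and immediate-early genes (blue) mostly below it, and all 22 G2/M genes (green) lie above it to the left.

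By the fixed naming rule, the 8 most positive differences belonged to PCDH10, RGPD5, VWA5B2, DNAJC15, SLC29A3, MALAT1, ASS1 and TTC28. ASS1, argininosuccinate synthase of arginine synthesis (chromosome 9, 130444929 to 130501274 on GRCh38), stood at 7.12, 8.16 and 7.47 CPM in the DMSO libraries of H2023 and at 20.1, 19.1 and 19.6 CPM with CCS1477. In ABC-1 it went from 250.3, 248 and 248 CPM to 76.4, 81.8 and 70.9 CPM. It therefore rose from a low level in every treated H2023 library and fell from a high level in every treated ABC-1 library, with log2 changes of 1.29 ± 0.06 and -1.76 ± 0.06 (± SE throughout) and a difference of 3.05 ± 0.08 (adjusted p = 4.01e-12). SLC29A3, a nucleoside transporter of lysosomes, rose in H2023 from 7.22 ± 0.406 to 11.7 ± 0.795 CPM (mean ± SD, n = 3 throughout) and fell in ABC-1 from 112 ± 1.67 to 18.2 ± 1.77 CPM. Its difference was 3.29 ± 0.11. PCDH10, a protocadherin, averaged 0.595 ± 0.130 CPM in H2023 without CCS1477 and 5.94 ± 0.700 CPM with it, against 14.7 ± 1.44 and 4.42 ± 0.477 CPM in ABC-1. PCDH10 and VWA5B2 passed the filter in H2023 through the treated libraries alone, and DNAJC15 did so in ABC-1 through its DMSO libraries, so each had to differ there. TTC28 averaged 0.932 ± 0.127 CPM in the treated ABC-1 libraries. For MALAT1, a long nuclear RNA, the difference of 3.15 ± 1.22 (adjusted p = 0.0487) missed the threshold under 18 alternatives and became -0.43 once transcript rows were added to their genes.

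The 8 most negative differences belonged to RGPD6, CCDC88A, PTGS2, NR4A1, PHLDB2, DYRK3, SNHG5 and AREG. PTGS2 encodes cyclooxygenase-2 (chromosome 1, 186671791 to 186680427) and gave 23.2, 28.4 and 23.1 CPM in H2023 with DMSO and 6.58, 4.30 and 5.21 CPM with CCS1477. Its ABC-1 libraries gave 16.1, 15.1 and 13.0 CPM and then 36.7, 37.8 and 33.5 CPM. PTGS2 thus fell in each treated H2023 library and rose in each treated ABC-1 library, by -2.23 ± 0.13 and 1.22 ± 0.13 on the log2 scale, a difference of -3.45 ± 0.19 (adjusted p = 2.50e-09). NR4A1, an immediate-early nuclear receptor, went from 49.4 ± 2.20 to 32.0 ± 2.08 CPM in H2023 and from 5.76 ± 0.551 to 39.0 ± 1.72 CPM in ABC-1 (difference -3.33 ± 0.11). AREG, a ligand of the EGF receptor, went from 79.3 ± 1.20 to 22.7 ± 1.32 CPM and from 4.76 ± 0.909 to 10.8 ± 0.800 CPM in the same order (difference -2.94 ± 0.15). CCDC88A had at most 0.319 CPM in the DMSO libraries of ABC-1, and it passed the filter there through the treated ones alone. SNHG5 had 0 reads in DMSO replicates 1 and 2 of ABC-1. RGPD5 and RGPD6 are near-identical copies whose reads can be split between them, and their replicates ranged from 0.520 to 32.3 CPM (RGPD5 in H2023 with DMSO) and from 0 to 34.7 CPM (RGPD6 in H2023 with CCS1477) within single groups, so their differences are uncertain.

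Among opposite genes with at least 5 CPM in the higher group of each line, the rule named those with the largest smaller change. ASS1, PCDH10, CDH7, C1orf115, CRISPLD2, ARHGAP28, MAN1A1 and SLC7A2 rose in H2023 and fell in ABC-1. SLC7A2, an importer of cationic amino acids such as arginine, rose from 21.5 ± 1.38 to 39.7 ± 1.23 CPM in H2023 and fell from 90.1 ± 2.00 to 39.2 ± 2.37 CPM in ABC-1. PTGS2, PHLDB2, AREG, PMEPA1, BIRC3, ARHGAP26, ANXA3 and GLRX fell in H2023 and rose in ABC-1. GLRX, a glutaredoxin that reduces glutathionylated proteins, fell from 51.2 ± 1.42 to 29.5 ± 0.252 CPM and rose from 3.48 ± 0.348 to 9.39 ± 0.911 CPM, though it overlaps RHOBTB3 on the other strand and the use of strand in counting is not known. In 18 opposite genes the log2 change reached at least 1 in both lines.

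The list of ATF4 and the amino acid response had 34 tested members of 36. In H2023, 14 rose, 14 fell and 6 did not pass, with a median log2 change of -0.03, and in ABC-1, 7 rose, 23 fell and 4 did not pass, with a median of -0.43. The difference was higher in H2023 for 21 members and lower for 3 (70.6% called, beside 45.0% of all tested genes). Its median was 0.32 against -0.01 over all tested genes. In all, 7 members were opposite (20.6%, beside 6.54% of all tested), and each of the 7 rose in H2023 and fell in ABC-1: CHAC1, GARS1, GPT2, JDP2, PHGDH, PSAT1 and STC2. Without CCS1477 replicate 3 of H2023 the number was 4. ATF4 itself (chromosome 22, 39519695 to 39522685) stood at 176, 179 and 182 CPM in H2023 with DMSO and at 173, 178 and 185 CPM with CCS1477, groups that overlapped. Its level in ABC-1 was 252, 249 and 251 CPM with DMSO and 147, 143 and 143 CPM with CCS1477, a fall in each treated library. The log2 changes were -0.05 ± 0.03 (adjusted p = 0.214) and -0.85 ± 0.03, and the difference was 0.80 ± 0.05 (adjusted p = 7.78e-09). These are transcript levels, whereas ATF4 is known to be controlled mainly in translation.

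The promoters of these genes were searched for the core of the ATF4 composite element. RefSeq promoters (GRCh38.p14, 250 bases before to 50 after each start) were found for 29 of the 34 tested members, and the core, TGATGNAA on either strand, was present in 9 of them (31.0%), against 4.46% of the 27305 genes in the table. A gene with several listed starts counted once if any of them held the core. In GARS1 and JDP2 other listed starts held no match. The members with a match were AARS1, ASNS, ATF3, CEBPG, CHAC1, GARS1, JDP2, SLC3A2 and SLC7A1. The AP-1 site, TGANTCA, was searched likewise and was present in 1 of 14 AP-1 list members with a promoter (7.14%), against 9.37% of all genes. These shares describe the lists and use no expression values. Among the opposite AP-1 list members only KLF6 had a promoter, and it held no AP-1 site. The others could not be searched. Of the 6 opposite ATF4 list members that were found, CHAC1, GARS1 and JDP2 held the ATF4 core, and 0 of the 6 held the AP-1 site. They are printed because they hold the core and moved in opposite directions in the lines. Each is the 250 bases before a start, 5′ to 3′ on the plus strand, with the match in capitals, which begins 209 bases before the start in CHAC1 (chr15:40953221-40953470), 33 in GARS1 (chr7:30594628-30594877) and 16 in JDP2 (chr14:75427772-75428021).
CHAC1: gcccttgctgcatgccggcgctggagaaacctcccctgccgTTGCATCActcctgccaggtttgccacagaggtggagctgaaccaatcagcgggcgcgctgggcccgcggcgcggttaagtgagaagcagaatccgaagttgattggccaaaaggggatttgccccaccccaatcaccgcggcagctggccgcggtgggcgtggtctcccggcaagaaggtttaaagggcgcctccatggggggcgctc
GARS1: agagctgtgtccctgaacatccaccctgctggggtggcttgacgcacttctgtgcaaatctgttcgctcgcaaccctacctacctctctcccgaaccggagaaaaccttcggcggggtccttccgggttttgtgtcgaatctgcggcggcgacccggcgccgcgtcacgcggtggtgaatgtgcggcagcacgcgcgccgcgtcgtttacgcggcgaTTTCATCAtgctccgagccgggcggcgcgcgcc
JDP2: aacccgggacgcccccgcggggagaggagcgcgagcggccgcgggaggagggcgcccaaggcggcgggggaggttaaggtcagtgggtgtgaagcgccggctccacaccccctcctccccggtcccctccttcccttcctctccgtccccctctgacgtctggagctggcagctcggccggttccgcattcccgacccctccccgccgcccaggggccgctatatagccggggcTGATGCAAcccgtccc

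JDP2, whose match lies closest to the printed start, encodes a basic leucine zipper repressor of AP-1 and ATF sites (chromosome 14, 75427716 to 75474111). In H2023 it rose from 7.07, 8.38 and 6.89 CPM to 9.71, 9.64 and 9.82 CPM. In ABC-1 it stood far higher and fell from 168, 167 and 171 CPM to 82.4, 89.5 and 87.5 CPM. The groups did not overlap in either line, and the log2 changes of 0.33 ± 0.07 and -1.02 ± 0.07 left a difference of 1.35 ± 0.10 (adjusted p = 3.49e-08). AF111167.2 overlaps it on the other strand. CHAC1, which breaks down glutathione, was measured at 3.08, 3.23 and 3.64 CPM and 4.56, 4.55 and 5.27 CPM in H2023 and at 7.45, 8.56 and 10.2 CPM and 6.46, 4.68 and 6.58 CPM in ABC-1, DMSO first. Its counts were low, and the rise in H2023 (0.45 ± 0.16, adjusted p = 0.0216) lost its call when DMSO replicate 1 or 2 or CCS1477 replicate 3 of H2023 was left out. GARS1, the glycyl-tRNA synthetase, changed by 0.15 ± 0.04 in H2023 and -0.40 ± 0.04 in ABC-1.

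Of the serine synthesis enzymes, PHGDH and PSAT1 were opposite and PSPH, which takes the last step, fell in both lines (-0.30 ± 0.06 in H2023 and -0.46 ± 0.06 in ABC-1, difference not called, adjusted p = 0.158). PSPH lies outside the naming rule. PHGDH, which takes the first step (chromosome 1, 119648411 to 119744226), stood at 37.5, 38.3 and 38.2 CPM with DMSO and 62.1, 64.6 and 65.4 CPM with CCS1477 in H2023. Before treatment its level in ABC-1 was much the same, at 36.2, 39.9 and 35.5 CPM, and CCS1477 took it to 26.5, 27.0 and 27.3 CPM. Every treated library lay above its controls in H2023 and below them in ABC-1, with log2 changes of 0.70 ± 0.06 and -0.52 ± 0.06 and a difference of 1.21 ± 0.08 (adjusted p = 1.46e-08). PSAT1, the next enzyme, went from 212 ± 4.84 to 248 ± 6.56 CPM in H2023 and from 165 ± 10.8 to 118 ± 5.20 CPM in ABC-1 (difference 0.72 ± 0.07). STC2, a secreted glycoprotein, changed by -1.40 ± 0.07 in ABC-1 and by 0.19 ± 0.07 in H2023 (adjusted p = 0.0331), and its rise in H2023 was not called with the replicate block or without H2023 DMSO replicate 1 or 3 or CCS1477 replicate 3. GPT2, a mitochondrial alanine aminotransferase, changed by 0.41 ± 0.08 and -0.20 ± 0.08. Its fall in ABC-1 (adjusted p = 0.0454) was just inside the threshold and was not called under 12 of 26 alternatives (a minimum change of 1 is not among them). Just outside lay CTH, of cysteine synthesis, at -1.70 ± 0.08 in ABC-1 and 0.17 ± 0.08 in H2023 (adjusted p = 0.0580).

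**Figure D2:**
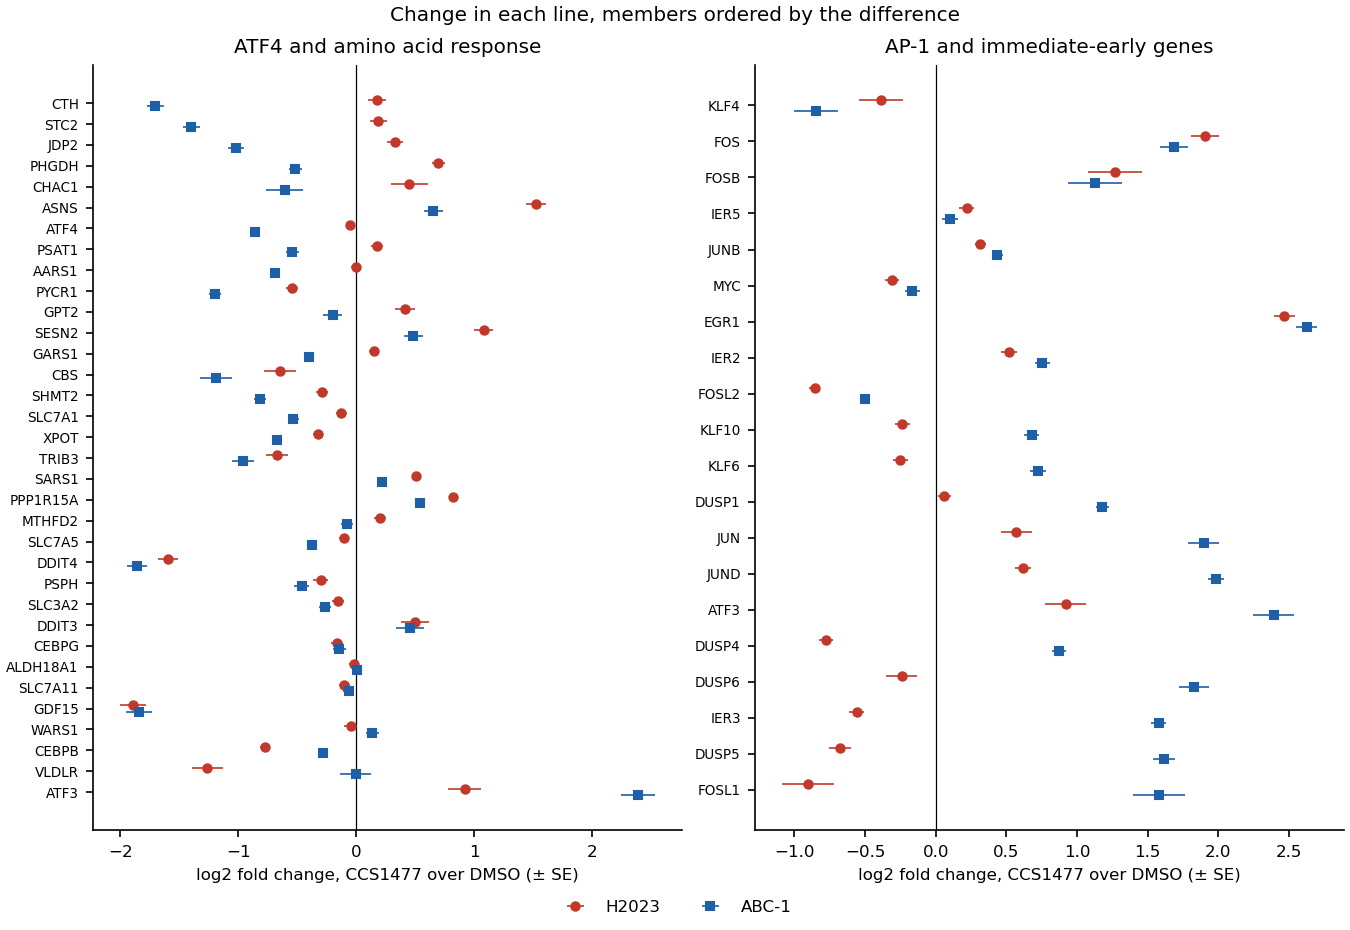
Log2 fold change of CCS1477 over DMSO with its SE for each tested member of 2 lists, ordered by the difference; red circles are H2023 and blue squares ABC-1. On the left the ABC-1 values lie to the left of the H2023 values for most of the 34 ATF4 members, and on the right they lie to the right for most of the 20 AP-1 members.

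Not all ATF4 list members were opposite. DDIT3, which encodes CHOP, rose in both lines, by 0.50 ± 0.12 and 0.46 ± 0.12, a difference of 0.05 ± 0.17 (adjusted p = 0.852). ASNS, asparagine synthetase, lies outside the naming rule and was chosen after its values were seen, as were ATF3 and CEBPB. It rose in both lines, with a larger log2 change in H2023 (1.53) than in ABC-1 (0.65). ATF3 and CEBPB were among the 3 members with a lower difference in H2023, at -1.47 and -0.49. AARS1, the alanyl-tRNA synthetase, stood at 220.2 ± 5.06 CPM with DMSO and 228 ± 4.34 CPM with CCS1477 in H2023, and fell from 225 ± 10.3 to 146 ± 1.42 CPM in ABC-1 (difference 0.69 ± 0.06).

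Of 25 genes for ER chaperones and the unfolded protein response, 4 rose and 12 fell in H2023, and 7 rose and 13 fell in ABC-1. The difference was higher for 8 and lower for 6 (56% called, near the 45.0% of all tested genes), with a median of 0.03. HERPUD1, of ER-associated degradation (chromosome 16, 56932048 to 56944863), stood at 27.5, 29.4 and 30.6 CPM and 30.5, 26.1 and 30.0 CPM in H2023, groups that overlapped. In ABC-1 it dropped from 77.8, 77.4 and 78.3 CPM to 19.6, 17.1 and 23.4 CPM, so that the difference was 1.95 ± 0.13 (adjusted p = 2.49e-08). The chaperones CALR and CRELD2 and the transmembrane factor CREB3L2 fell in ABC-1 too, with differences of 0.43 ± 0.05, 0.77 ± 0.12 and 0.74 ± 0.07. HSPA5, the main ER chaperone, fell in both lines, and its difference of 0.16 ± 0.06 (adjusted p = 0.0284) missed the threshold when any of 6 single libraries was left out. DNAJC3, an inhibitor of the kinase PERK, was the opposite member, at -0.12 ± 0.05 and 0.35 ± 0.05, and its fall in H2023 was lost under scaling by library totals and without any of 4 single H2023 libraries.

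Of 27 cytosolic and mitochondrial heat shock genes, 6 rose and 18 fell in H2023, 9 rose and 13 fell in ABC-1, and the difference was higher for 7 and lower for 7 (51.9% called, near the 45.0% of all tested genes, with a median of 0.06). The opposite members were HSPA1A, HSPA8 and DNAJB1, and each fell in H2023 and rose in ABC-1. HSPA1A, the inducible HSP70 (chromosome 6, 31815464 to 31817946), gave 475, 486 and 459.6 CPM with DMSO and 406, 411 and 425 CPM with CCS1477 in H2023. The corresponding values in ABC-1 were 346, 350.3 and 333 CPM and 423, 432 and 446 CPM. The groups were apart in both lines, though by little (difference -0.53 ± 0.05, adjusted p = 2.00e-06), and HSPA1A shares nearly all of its sequence with HSPA1B, so reads may be split. DNAJB1, an HSP40 cochaperone, changed by -0.11 ± 0.04 and 0.61 ± 0.04, and HSPA8, the constitutive HSP70, by -0.09 ± 0.04 (adjusted p = 0.0421) and 0.12 ± 0.04. In H2023 neither fall was called under scaling by library totals, and HSPA8 was not opposite under 14 of the 26 alternatives. The fall of DNAJB1 was also lost without CCS1477 replicate 3 of H2023, and TECR overlaps DNAJB1 on the other strand. HSP90AA1, an HSP90, rose in H2023 by 0.52 ± 0.04 and changed by 0.09 ± 0.04 in ABC-1 (adjusted p = 0.0613). HSF1, the factor that drives the heat shock response, fell in both, by 0.13 ± 0.04 and 0.20 ± 0.04, and its difference was not called (adjusted p = 0.279).

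Of 18 genes for the proteasome, 0 had a higher difference and 8 a lower one in limma, with a median of -0.13 (the 0 held at an unadjusted p under 0.05 and by limma-voom). These 8 are 44.4% of the list, beside 45.0% of all tested genes, so that the number called was at the background. In H2023, 6 rose and 7 fell, and in ABC-1, 10 rose and 2 fell. PSMA1 and PSMA2, which encode subunits of the catalytic core, were opposite, at -0.15 ± 0.03 and -0.20 ± 0.07 in H2023 and 0.14 ± 0.03 and 0.22 ± 0.07 in ABC-1. The call of PSMA2 was lost when any of 4 single libraries was left out, and PSMA2 overlaps MRPL32 on the other strand.

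Among AP-1 and immediate-early genes most called changes in ABC-1 were rises. Of 20 tested members of 22, 9 rose and 9 fell in H2023 (median -0.09), whereas 16 rose and 3 fell in ABC-1 (median 1.15). The difference was lower in H2023 for 13 members and higher for 0 in limma (also 0 at an unadjusted p under 0.05 and by limma-voom), with a median of -0.94, and 6 members were opposite (30%, beside 6.54% of all tested). A difference was called for 65% of the members, beside 45.0% of all tested genes. DUSP4, DUSP5, FOSL1, IER3, KLF6 and KLF10 each fell in H2023 and rose in ABC-1. FOSL1 had to rise in ABC-1 to pass the filter there, yet it is counted in these rises and in the 30%. FOSB, also counted among the rises, had a group under 1 CPM as well. Removing 1 of 4 single libraries or adding transcript rows gave 1 member a higher difference.

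DUSP5, a nuclear phosphatase of ERK (chromosome 10, 110497838 to 110511544), stood at 73.7, 71.5 and 72.9 CPM with DMSO in H2023 and at 45.5, 51.2 and 44.6 CPM with CCS1477. It was much lower in untreated ABC-1, at 9.30, 11.4 and 11.0 CPM, and reached 32.0, 34.8 and 35.5 CPM. The lines thus converged, with log2 changes of -0.68 ± 0.08 and 1.61 ± 0.08 and a difference of -2.29 ± 0.11 (adjusted p = 6.63e-10). IER3, an immediate-early regulator of cell survival (chromosome 6, 30743199 to 30744554), gave 80.7, 84.4 and 80.6 CPM and 55.0, 59.2 and 58.6 CPM in H2023. Its libraries in ABC-1 gave 14.3, 15.1 and 14.2 CPM and 45.1, 45.8 and 46.1 CPM. Here too the treated levels lay between the untreated levels of the lines, and the difference was -2.14 ± 0.07 (adjusted p = 2.24e-11). DUSP4, another MAP kinase phosphatase, went from 279.9 ± 5.66 to 169 ± 4.56 CPM in H2023 and from 20.3 ± 1.00 to 39.0 ± 1.79 CPM in ABC-1.

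FOSL1, the FOS family member FRA1 (chromosome 11, 65892049 to 65900573), fell in H2023 from 49.5, 53.5 and 50.8 CPM to 29.4, 28.1 and 27.3 CPM. In ABC-1 it had 8, 3 and 4 reads in the DMSO libraries and 19, 30 and 27 with CCS1477. It passed the filter in ABC-1 through the treated libraries alone, so that it had to rise there, and its difference of -2.48 ± 0.26 rests on those few reads. The zinc finger factors KLF6 and KLF10 changed by -0.25 ± 0.05 and -0.24 ± 0.06 in H2023 and by 0.72 ± 0.05 and 0.68 ± 0.06 in ABC-1. DUSP6, a cytoplasmic ERK phosphatase, lay just outside, with 1.83 ± 0.11 in ABC-1 and -0.24 ± 0.11 in H2023 (adjusted p = 0.0670). DUSP1 changed by 0.06 ± 0.05 in H2023 (adjusted p = 0.279) and rose by 1.18 ± 0.05 in ABC-1.

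Of the 7 tested genes for members of the dimer, JUN, JUNB, JUND, FOS and FOSB rose in both lines and FOSL2 fell in both. FOSB averaged under 1 CPM in a group, so that the filter favoured a rise in that line. JUN went from 27.1 ± 3.25 to 41.8 ± 4.90 CPM in H2023 and from 27.3 ± 3.56 to 106 ± 3.05 CPM in ABC-1 (difference -1.33 ± 0.15, adjusted p = 5.81e-06). JUND rose by 0.62 ± 0.06 and 1.98 ± 0.06. FOS and EGR1 rose by 1.91 and 2.47 on the log2 scale in H2023 and by 1.69 and 2.62 in ABC-1. FOS, FOSB, FOSL2, JUNB and EGR1 lie outside the naming rule and were picked after their values were seen.

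**Figure D3:**
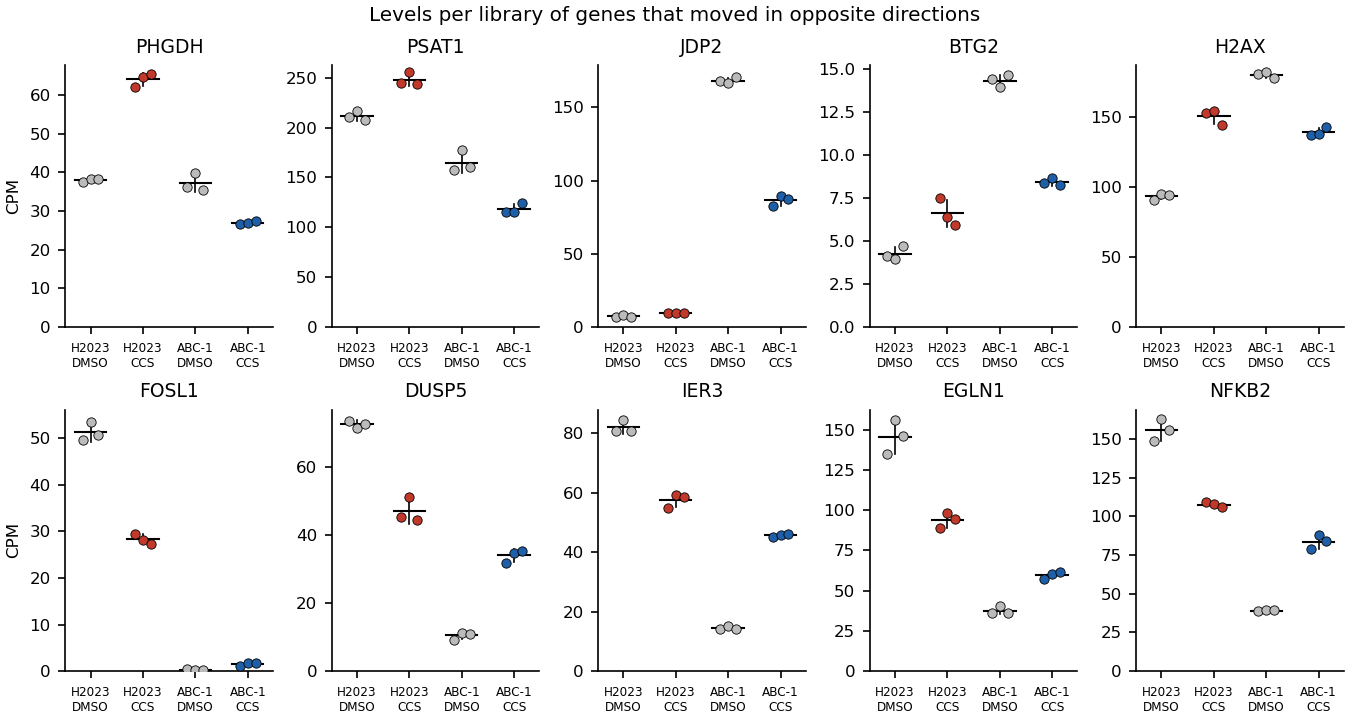
CPM of 10 opposite genes in each library (points), with the mean (horizontal bar) and SD (vertical bar) of 3 libraries in each group; the axes start at 0. In the top row the treated H2023 libraries (red) lie above their DMSO controls (grey) and the treated ABC-1 libraries (blue) below theirs, and in the bottom row the order is reversed.

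The list for NF-kB and inflammatory cytokines had 9 tested genes of 20, and no cytokine was among them: CXCL8 and LIF were below the filter, and the other cytokines had no row shared by the tables of both lines used here. The 9 are the NF-kB subunits NFKB1, NFKB2, RELA and RELB, the inhibitors NFKBIA, NFKBIE and TNFAIP3, and the targets BIRC3 and ICAM1. They had the lowest median difference of the 26 lists, at -1.31. In H2023, 0 rose and 7 fell, and in ABC-1, 7 rose and 1 fell, by limma. The difference was lower in H2023 for 8 and higher for 0 (88.9% called, beside 45.0% of all tested genes). Both counts of 0 held at an unadjusted p under 0.05 and by limma-voom. In all, 6 members were opposite (66.7%, beside 6.54% of all tested), all lower in H2023. BIRC3, the apoptosis inhibitor cIAP2 (chromosome 11, 102317450 to 102339403), fell in H2023 from 149, 155 and 149 CPM to 56.4, 62.3 and 55.5 CPM. In ABC-1 it rose from a mean of 20.3 ± 0.600 CPM to 41.2, 40.9 and 45.2 CPM. The groups did not overlap in either line (difference -2.42 ± 0.08, adjusted p = 1.36e-11). NFKB2, the p100 subunit, gave 149, 163 and 156 CPM and 109, 108 and 106 CPM in H2023. Its ABC-1 libraries stood at 38.7, 39.3 and 39.4 CPM and rose to 78.8, 87.8 and 84.1 CPM. As with IER3, both treated groups lay between the untreated ones (difference -1.61 ± 0.06, adjusted p = 9.78e-11). RELB, its partner, rose in ABC-1 by 1.96 ± 0.11, and its log2 change of -0.26 ± 0.11 in H2023 (adjusted p = 0.0448) was not called under 8 alternatives. The other opposite members were NFKBIA, TNFAIP3 and ICAM1, named after their values were seen. TNFAIP3, the deubiquitinase A20, changed by -1.20 in H2023 and 0.52 in ABC-1. NFKBIA, the inhibitor IkB alpha, changed by -0.28 and 0.15, and ICAM1, an adhesion molecule, by -0.23 and 0.12. Without CCS1477 replicate 2 of ABC-1, and in the fit over 18 libraries, 4 members were opposite.

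NFE2L2, which encodes NRF2 (chromosome 2, 177227595 to 177392697), was itself opposite. It stood at 155, 157 and 157 CPM with DMSO in H2023 and at 139, 131 and 121 CPM with CCS1477. In ABC-1 the DMSO libraries held 96.4, 106 and 93.1 CPM and the treated ones 121, 125 and 123 CPM. The difference was -0.57 ± 0.08 (adjusted p = 3.12e-05), and AGPS overlaps the gene on the other strand. KEAP1 fell in both lines with a difference of 0.13 ± 0.06 (adjusted p = 0.0925), which was called under scaling by relative log expression, by the trimmed mean of M values and without ABC-1 DMSO replicate 3.

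Of 13 NRF2 targets for drug metabolism and transport, 1 rose and 11 fell in H2023 (median -0.62), and 4 rose and 6 fell in ABC-1 (median -0.14). The difference was higher for 4 and lower for 7 (84.6% called, beside 45.0% of all tested genes). The aldo-keto reductases AKR1C2 and AKR1C3, very similar paralogs that share reads, fell in both lines and by more in ABC-1, where they were scarce. AKR1C3 went from 938 ± 20.5 to 420.5 ± 1.84 CPM in H2023 and from 22.9 ± 0.525 to 3.21 ± 0.344 CPM in ABC-1 (difference 1.59 ± 0.08). EPHX1, a microsomal epoxide hydrolase (chromosome 1, 225810092 to 225845563), gave 213, 225 and 213 CPM and 247, 239 and 240.3 CPM in H2023. It rose in ABC-1 from 7.90, 7.79 and 8.63 CPM to 43.1, 40.2 and 44.0 CPM. The change in H2023 missed the threshold (adjusted p = 0.0693) and the difference was -2.18 ± 0.07. TMEM63A overlaps EPHX1 on the other strand. KYNU, of tryptophan breakdown, fell in H2023 by 1.89 ± 0.10 and changed by -0.14 ± 0.10 in ABC-1 (adjusted p = 0.226). ABCC1, the exporter MRP1, and ALDH3A2, a fatty aldehyde dehydrogenase, were opposite, at -0.41 ± 0.07 and -0.18 ± 0.06 in H2023 and 0.25 ± 0.07 and 0.66 ± 0.06 in ABC-1. The fall of ALDH3A2 was lost under scaling by library totals and without DMSO replicate 2 or CCS1477 replicate 3 of H2023.

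NRF2 targets for glutathione, thioredoxin and iron numbered 18, of which 10 rose and 3 fell in H2023 (median 0.15), and 11 rose and 4 fell in ABC-1 (median 0.72). The difference was higher for 5 and lower for 10 (83.3% called, beside 45.0% of all tested genes). TXNRD1, thioredoxin reductase (chromosome 12, 104215779 to 104350305), went from 1452, 1497 and 1452 CPM to 2142, 2166 and 2090.4 CPM in H2023. In ABC-1 it was lower and rose from 285, 277 and 270.4 CPM to 751, 737 and 782 CPM. Both lines rose with no overlap of groups, and ABC-1 by more (difference -0.90 ± 0.05, adjusted p = 3.89e-09). The ferritin chains followed the same order. FTL rose by 0.36 ± 0.04 and 1.44 ± 0.04, while FTH1 changed by 0.08 ± 0.04 in H2023 (adjusted p = 0.119) and rose by 1.31 ± 0.04 in ABC-1. SRXN1, which reduces peroxiredoxins, had a difference of -0.82 ± 0.06. BLVRB, a biliverdin reductase, fell in H2023 (-0.55 ± 0.05) and rose in ABC-1 (0.24 ± 0.05). GSR, glutathione reductase, changed by as little as 0.13 ± 0.04 and -0.14 ± 0.04, and its call was lost under scaling by library totals and without DMSO replicate 1 or CCS1477 replicate 2 of H2023.

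NADPH supply was covered by 9 genes. In H2023, 2 of them rose and 5 fell, and in ABC-1, 3 rose and 5 fell. The difference was higher for 4 and lower for 4 (88.9% called, beside 45.0% of all tested genes). PGD, the third enzyme of the pentose phosphate pathway (chromosome 1, 10398592 to 10420144), was opposite. It gave 1366, 1359.6 and 1378 CPM and 1254, 1260.3 and 1263 CPM in H2023. In ABC-1 it gave 176, 179 and 175 CPM and 280.3, 267 and 278 CPM. The fall in H2023 was small beside the rise in ABC-1, at -0.17 ± 0.03 against 0.58 ± 0.03 (difference -0.75 ± 0.05, adjusted p = 8.67e-09). TALDO1, transaldolase of the same pathway, changed by -0.07 ± 0.04 and -0.56 ± 0.04, and ME1, malic enzyme, by -0.07 ± 0.09 and -2.30 ± 0.09, having under 1 CPM in the treated ABC-1 libraries. The filter therefore favoured a fall of ME1 in ABC-1.

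In the p53 target list of 25 genes, 14 rose and 8 fell in H2023 (median 0.38) and 10 rose and 8 fell in ABC-1 (median -0.04). The difference was higher for 10 and lower for 7 (68% called, beside 45.0% of all tested genes). BTG2 (chromosome 1, 203305491 to 203309602), which restrains the cell cycle, rose in H2023 from 4.15, 3.94 and 4.68 CPM to 7.49, 6.39 and 5.94 CPM. It fell in ABC-1 from 14.4, 13.9 and 14.6 CPM to 8.35, 8.65 and 8.27 CPM. The groups of each line did not overlap, and the difference was 1.36 ± 0.15 (adjusted p = 3.16e-06). CCNG1, cyclin G1, was opposite in the same sense, at 0.77 ± 0.06 in H2023 and -0.15 ± 0.06 in ABC-1. The small fall of CCNG1 was not called under scaling by library totals or without any of 4 single ABC-1 libraries. TNFRSF10B, the TRAIL receptor DR5, was opposite the other way, with -0.20 ± 0.05 in H2023 and 0.66 ± 0.05 in ABC-1, and RHOBTB2 overlaps it on the other strand. CDKN1A, the inhibitor p21, rose in both lines, from 37.0 ± 0.341 to 93.7 ± 0.345 CPM in H2023 and from 19.8 ± 2.04 to 104 ± 1.74 CPM in ABC-1, with a larger change in ABC-1 (difference -1.04 ± 0.08).

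Of 16 genes for growth arrest and DNA damage, 3 rose and 12 fell in H2023, and 1 rose and 11 fell in ABC-1. The difference was higher for 11 and lower for 2 (81.3% called, beside 45.0% of all tested genes, with a median of 0.37). H2AX, the histone variant that is phosphorylated at DNA breaks (chromosome 11, 119093854 to 119095467), was the opposite member. It went from 90.8, 94.8 and 94.2 CPM to 152, 154 and 144 CPM in H2023. The ABC-1 values were 181, 182 and 178 CPM and 137, 138 and 142 CPM. The untreated level was lower in H2023, and the treated groups lay close together, for a difference of 1.06 ± 0.05 (adjusted p = 1.12e-09). GADD45B rose in H2023 by 1.15 ± 0.06 and changed by -0.09 ± 0.06 in ABC-1 (adjusted p = 0.183). Its relative GADD45A changed by 0.26 ± 0.15 in H2023 (adjusted p = 0.143) and rose by 1.96 ± 0.15 in ABC-1.

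Of 13 apoptosis regulators of the BCL2 family, 4 rose and 6 fell in H2023 and 4 rose and 8 fell in ABC-1. The difference was higher for 4 and lower for 5 (69.2% called, beside 45.0% of all tested genes). The BH3-only gene PMAIP1, or NOXA, was opposite, at 0.33 ± 0.11 (adjusted p = 0.0208) and -0.40 ± 0.11, a call lost when DMSO replicate 3 or CCS1477 replicate 2 or 3 of H2023 was left out. BBC3, or PUMA, rose in H2023 from 1.29, 1.42 and 1.17 CPM to 3.32, 4.79 and 4.30 CPM. Its ABC-1 libraries gave 4.71, 4.41 and 4.63 CPM and 4.40, 3.73 and 4.07 CPM. Only the rise in H2023 passed the threshold (ABC-1 adjusted p = 0.228), and the difference was called at 1.67 ± 0.22. BCL2L11, or BIM, rose in both lines with a difference of 0.61 ± 0.08, and the survival gene MCL1 rose in both with a difference of -0.52 ± 0.07.

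Among 20 hypoxia and glycolysis genes the difference was higher for 4 and lower for 9 (65% called, beside 45.0% of all tested genes). In H2023, 8 rose and 8 fell, and in ABC-1, 9 rose and 5 fell. EGLN1, the hydroxylase PHD2 that marks HIF1A for degradation (chromosome 1, 231363751 to 231425044), fell in H2023 from 135, 156 and 146 CPM to 88.9, 98.3 and 94.5 CPM. It rose in ABC-1 from 36.4, 40.2 and 36.0 CPM to 57.4, 60.6 and 61.5 CPM. Groups were apart in both lines, and the difference was -1.29 ± 0.09 (adjusted p = 4.06e-08). NDRG1, a hypoxia-induced gene, was opposite in the other sense, from 35.5 ± 1.44 to 61.9 ± 5.02 CPM in H2023 and from 47.1 ± 2.15 to 35.2 ± 1.76 CPM in ABC-1. PGK1, of glycolysis, changed by -0.15 ± 0.04 and 0.17 ± 0.04, and the gene model of ATP7A overlaps it on the same strand. HIF1A fell in H2023 by 0.75 ± 0.04 and changed by 0.06 ± 0.04 in ABC-1 (adjusted p = 0.173).

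Of 21 genes for autophagy and lysosomes, 14 rose and 5 fell in H2023 and 15 rose and 2 fell in ABC-1. The difference was higher for 6 and lower for 5 (52.4% called, near the 45.0% of all tested genes), with a median of -0.01. SQSTM1, the cargo receptor p62, rose in both lines, by 1.04 ± 0.03 and 1.25 ± 0.03. ATG7, an activating enzyme of autophagy, and TFE3, a factor of lysosomal genes, were opposite, at -0.24 ± 0.07 and -0.59 ± 0.11 in H2023 and 0.27 ± 0.07 and 0.30 ± 0.11 in ABC-1. VGLL4 overlaps ATG7 on the other strand. The rise of TFE3 was lost without any of 4 single ABC-1 libraries. Of 5 genes for metallothioneins and metal transport, SLC30A1, a zinc exporter, was opposite (-0.26 ± 0.06 and 0.16 ± 0.06), a call lost without DMSO replicate 1 or 3 or CCS1477 replicate 3 of ABC-1. MT2A, a metallothionein with close paralogs, rose in H2023 by 1.12 ± 0.07 and changed by 0.11 ± 0.07 in ABC-1 (adjusted p = 0.223).

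Over the 14 stress lists with each gene counted once, 36 of 256 tested genes were opposite (14.1%, beside 6.54% of all tested), 14 of them higher in H2023 and 22 lower. The lists were chosen with earlier results of these data known, so this share is a description. Of the 36 genes, 22 were opposite under all 26 alternatives that set no minimum change, and FOSL1 under the 25 in which it was tested. Under each change of scaling 29 were opposite, and 35 were without DMSO replicate 3 of ABC-1. In the filter, 4 of the 256 genes (ABCC2, FOSB, FOSL1 and ME1) had a group under 1 CPM, and of these FOSL1 is counted among the 36.

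**Figure D4:**
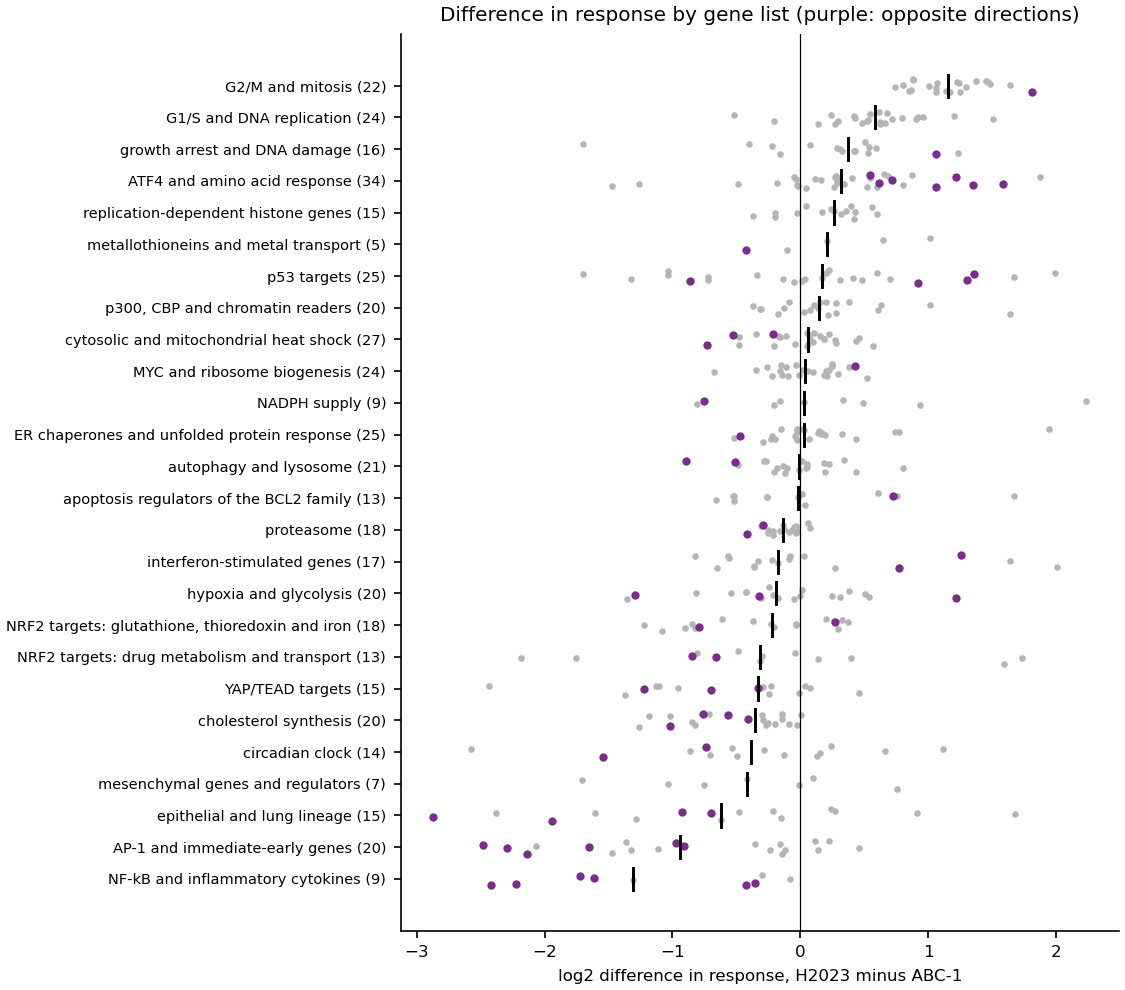
Difference in log2 response, H2023 minus ABC-1, of every tested member (points) of the 26 lists, with the median as a vertical bar and the number of tested members in brackets; purple points are opposite genes. The NF-kB list lies lowest, with a median of -1.31, and the G2/M list highest, with 1.15.

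In the 12 lists outside stress, 42.9 to 100% of tested members had a called difference, beside 45.0% of all tested genes. All 22 tested G2/M genes had a higher difference in H2023 (median 1.15). Of these genes, 22 fell in ABC-1 (median -1.67) and 19 fell in H2023 (median -0.50). KIF20A, a mitotic kinesin, fell from 95.0 ± 2.29 to 68.2 ± 0.900 CPM in H2023 and from 102 ± 1.63 to 26.4 ± 1.00 CPM in ABC-1, and CENPF, a kinetochore protein, had a difference of 1.48 ± 0.05. BUB1, a checkpoint kinase, fell by 1.68 ± 0.05 in ABC-1, and its log2 change of 0.13 ± 0.05 in H2023 (adjusted p = 0.0384) was not called with transcript rows added or without any of 4 single H2023 libraries. Of 24 genes for G1/S and DNA replication, 21 fell in H2023 and 23 in ABC-1, and the difference was higher for 21 and lower for 1 (median 0.58). MCM5, of the replicative helicase, fell by 1.21 ± 0.04 and 2.00 ± 0.04. All 15 replication-dependent histone genes fell in both lines, with 8 differences higher and 3 lower, and they belong to families of similar copies whose reads may be shared.

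Of 20 genes for cholesterol synthesis, 5 rose and 10 fell in H2023 and 13 rose and 5 fell in ABC-1, and the difference was lower for 14 and higher for 0 by limma, at an unadjusted p under 0.05 and by limma-voom (median -0.36). MSMO1, a sterol demethylase, was opposite (-0.68 ± 0.05 and 0.34 ± 0.05). Of 15 YAP/TEAD targets and regulators, 11 had a lower difference and 1 a higher one. ANKRD1 rose from 23.3 ± 1.23 to 43.7 ± 0.460 CPM in H2023 and from 37.7 ± 1.21 to 386 ± 5.67 CPM in ABC-1, and WWTR1, the coactivator TAZ, was opposite (-0.83 ± 0.05 and 0.39 ± 0.05).

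Of 15 epithelial and lung lineage genes, 13 fell and 0 rose in H2023 by limma (1 at an unadjusted p under 0.05, 0 by limma-voom), while 5 rose and 7 fell in ABC-1. CDH1, or E-cadherin (chromosome 16, 68737225 to 68835548), fell in H2023 from 42.8, 49.9 and 49.3 CPM to 8.27, 8.60 and 7.46 CPM. In ABC-1 it rose from 242, 242 and 249 CPM to 305, 318 and 323 CPM. The difference was -2.87 ± 0.09 (adjusted p = 8.91e-12), and CLDN1, a tight junction protein, moved likewise (-1.29 ± 0.04 and 0.65 ± 0.04). Of 14 circadian clock genes, 7 had a lower and 2 a higher difference, among them BHLHE40 (-0.77 ± 0.05 and 0.77 ± 0.05). Of 17 interferon-stimulated genes the difference was higher for 4 and lower for 4, and of 24 genes for MYC and ribosome biogenesis it was higher for 8 and lower for 4. Among 20 genes for p300, CBP and chromatin readers it was higher for 7 and lower for 4, with no opposite member. EP300 changed by 0.10 ± 0.04 and -0.04 ± 0.04, a difference of 0.14 ± 0.05 (adjusted p = 0.0499) that was not called under 17 alternatives, and CREBBP had a difference of 0.07 ± 0.06 (adjusted p = 0.336). The 7 mesenchymal genes had 1 higher and 2 lower differences. In these interferon, MYC, p300 and mesenchymal lists 47.1, 50, 55 and 42.9% of members had a called difference, shares near the 45.0% of all tested genes.

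The 36 opposite stress genes were also read in H460, a large cell carcinoma line that the series text names as NRF2-activated, after the lines above had been compared. CCS1477 changed 55.3% of 12474 tested genes in H460. Of the 36 genes, 13 changed in the direction of H2023, 11 in the direction of ABC-1 and 12 did not pass. Without CCS1477 replicate 1 of H460, a library with a low mitochondrial share (0.795%), 56.9% of genes were called, and 15, 11 and 10 of the 36 fell in these classes. All 7 opposite ATF4 genes fell in H460 as in ABC-1, among them CHAC1 (-1.54 ± 0.14), JDP2 (-0.87 ± 0.10), STC2 (-0.79 ± 0.07) and PHGDH (-0.28 ± 0.06). DUSP4, IER3 and FOSL1 fell in H460 as in H2023, by 0.92 ± 0.04, 0.58 ± 0.08 and 0.47 ± 0.06, and H2AX rose as in H2023, by 0.66 ± 0.10. KLF6 and EGLN1 rose as in ABC-1, by 0.58 ± 0.05 and 0.53 ± 0.06. Whether H460 differed from either line was not tested here.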

How the data were processed

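Directional RNA libraries were sequenced as pairs of 150-base reads, per the labels' protocols. The authors deposited log2 values, each table scaled on its own. They equal log2 of whole reads over a factor per library plus 4, which understates changes of low genes: every value that stood for at most 1000 reads lay within 0.1 of a whole number. GRCh38 is named per the submitters' processing notes. The aligner, the counter and whether strand was used are not given in the sources. Overlaps on the other strand are not given for every named gene. Further cases include DDIT3 (MARS), HSP90AA1 (WDR20) and SQSTM1 (MGAT4B). CPM were computed from recovered reads. Transcript rows (9.19 to 10.7% of reads) were left out. Coordinates are from GENCODE 29, which held 14640 of the 15333 shared rows.

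limma-trend (limma 3.58.1, R 4.3.3) was fitted on the deposited log2 values of 12 libraries with 4 group means, two-sided. Tested on simulated data of 12469 genes with 200 changed, it recovered 49% of log2 differences of 0.5 and 85% of those of 1. It made 9 false calls there, 6.29% of its calls. Far fewer genes were changed in the simulation than were called in the data, so these rates need not hold for the data. Members and lists were chosen with earlier results of these data known. Genes named were 8 set genes, the 8 highest and lowest differences, 8 opposite genes of each sense, every opposite stress gene, and up to 4 (stress) or 3 (other) further members of each list by p; some of these genes are not reported here. Alternatives were 3 scalings, log2(CPM + 0.25), limma-voom, 3 filters, constants of 0.1, 1 and 16, a minimum change, a replicate block, added transcript rows, 18 libraries and each library left out. The H460 reading was added after seeing the data.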

Additional observations from a re-analysis of the deposited data

Results flagged for a closer look

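The difference between the lines' responses was called by its own test, the interaction contrast of the fit, for 5613 genes, and 816 of these were opposite. Opposite stress genes are given here by their log2 difference, H2023 minus ABC-1. Among AP-1 and immediate-early genes it was -2.48 for FOSL1, -2.29 for DUSP5, -2.14 for IER3, -1.65 for DUSP4, -0.97 for KLF6 and -0.91 for KLF10. The value of FOSL1 rests on few reads in ABC-1, where it had to rise to pass the filter. In the ATF4 list the log2 difference was 1.59 for STC2, 1.35 for JDP2, 1.21 for PHGDH, 1.06 for CHAC1, 0.72 for PSAT1, 0.61 for GPT2 and 0.55 for GARS1. For p53, DNA damage and apoptosis genes it was 1.36 for BTG2, 1.06 for H2AX, 0.92 for CCNG1, 0.73 for PMAIP1 and -0.86 for TNFRSF10B. For antioxidant and NADPH genes it was -0.84 for ALDH3A2, -0.79 for BLVRB, -0.75 for PGD, -0.66 for ABCC1 and 0.27 for GSR. Protein folding and proteasome genes gave -0.73 for DNAJB1, -0.53 for HSPA1A, -0.47 for DNAJC3, -0.42 for PSMA2, -0.29 for PSMA1 and -0.22 for HSPA8. The remaining values were -1.29 for EGLN1, 1.22 for NDRG1 and -0.33 for PGK1 (hypoxia), -0.89 for TFE3 and -0.51 for ATG7 (autophagy), and -0.43 for SLC30A1 (zinc export).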

How the results depend on the processing

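With an absolute log2 difference between the lines of at least 1 required, 1033 genes were called (531 higher in H2023 and 502 lower). Of the opposite genes, 170 and 171 in each sense reached this difference, while 18 in all had a log2 change of at least 1 in both lines. With an absolute log2 change of at least 1 required within a line, 865 and 1571 genes changed in H2023 and ABC-1. Under the other alternatives the counts of called, opposite and changed genes stayed within 1.5 times their main values. Leaving out each library gave 5152 to 5458 called differences, 2460 to 2694 higher and 2587 to 2998 lower, 318 to 365 and 393 to 497 opposite genes, and 7043 to 7627 and 7896 to 8358 changed genes in H2023 and ABC-1. More differences were higher than lower with the trimmed mean of M values (3098 against 2699) and relative log expression (3014 against 2804). The replicate block gave 5383 called differences. Deviations of same-numbered libraries had correlations of 0.019, 0.078 and 0.046 in H2023 and -0.106, -0.016 and -0.044 in ABC-1. Libraries of unlike number gave -0.055 to 0.006 in H2023 and -0.042 to 0.092 in ABC-1. Same-numbered libraries thus had the highest values in H2023, though small ones, and not in ABC-1. The numbers are not taken as pairs. For the difference between the lines, 4079 of 4144 pairs of a named gene and an alternative without a minimum change kept direction and call, 61 lost the call, 3 gained one and 1 reversed (MALAT1, -0.43 with transcript rows added, the cause was not tested). The opposite call, which needs both lines to pass, was lost in 87 of 1737 such pairs, most often for HSPA8 (14) and GPT2 (12). Depth limits genes of a few reads, such as FOSL1 in ABC-1.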
